A study of Homo sapiens with 16 samples.

Results

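The RBM-series genes encode RNA-binding proteins that share one or more RNA recognition motifs and carry the symbol RBM (RNA-binding motif) with a number, RBMX or RBMX2, or RBMS with a number. The symbols were matched in GENCODE, and 42 protein-coding members were found among the 60107 genes of the count tables. RBM8B, which has a matching symbol but is annotated as a pseudogene, was left out. The members act at many steps of an mRNA's life. Some choose splice sites or belong to the spliceosome, some mark nuclear RNA with m6A or send it to export or decay, some work in the nucleolus, and some hold or destabilize mRNA in the cytoplasm. Many of them control the splicing of their own or each other's transcripts.

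The RNA was the poly(A) fraction of cytoplasmic extracts of U2OS-TR, a line of human osteosarcoma cells with a stably expressed tetracycline repressor. The Control group (n = 5) was the U2OS-TR/ΔN-RNMT line without induction, and the Induced group (n = 5) was the same line after 24 h with 1 μg/ml doxycycline, added 48 h after the cells were split. ΔN-RNMT is a catalytically inactive form of RNMT, the enzyme that methylates the guanosine of the mRNA cap. It lacks the nuclear localization signals, carries a nuclear export signal, and is made from a CMV promoter with tetracycline operators. The No Dox and With Dox groups (n = 3 each) were parental U2OS-TR cells without the transgene, untreated or given the same doxycycline for the same time, and served as the control for doxycycline itself. The transgene line is a single clone. The treatment protocol recorded with the libraries lists doxycycline for all of them, and the study's own methods, which treat only the Induced and With Dox cells, were followed here.

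Sequence tags beside the poly(A) tail were counted per gene, with 12527183 to 23251834 gene counts per transgene-line library and 1473286 to 3214808 per parental library. Levels are given as CPM, the gene's tags relative to a library's total after scaling with TMM factors, which set libraries equal at the typical gene, separately for each line. RNMT, examined first as a check of the labels, lay between 55.6 and 112 CPM in Control and between 266 and 458 in Induced, a log2 fold change of 2.22 (SE 0.23, adjusted P = 0.00805). The RNMT tags can come from the transgene or from the cell's own gene. The libraries did not split cleanly by label. On the first principal component, with 78.9% of the variance, Control 5 lay at 33.9 and Induced 2 at -13.5, while the other Control libraries lay between -102 and -45.3 and the other Induced libraries between 57.4 and 71.4. Results that rest on these libraries are given with and without them. The lines differed in sequencing facility, instrument and read length as well as in the transgene, and these cannot be told apart. Of the markers of other cell types, the epithelial list summed to between 394 and 615 CPM in Control and between 273 and 383 in Induced, and the blood list to at most 0.387 in Control and 0.698 in Induced, all from PTPRC, with CD3E at 0 in every library. The 6 osteoblast and mesenchymal markers summed to between 497 and 784 in Control and between 671 and 1039 in Induced, with COL1A2 at 0 in Control, No Dox and With Dox. Of the 5 tested, VIM (1.44, SE 0.37, adjusted P = 0.0182) and RUNX2 (1.16, SE 0.28, adjusted P = 0.0175) were called higher in Induced and 0 lower. FN1 (-0.45, SE 0.18), COL1A1 (0.00029, SE 0.19) and SPARC (0.05, SE 0.18) were not called. In the epithelial list, KRT18 (-0.78, SE 0.19, adjusted P = 0.0175) and KRT8 (-0.40, SE 0.14, adjusted P = 0.0424) were called lower. EPCAM (0.61, SE 0.26, adjusted P = 0.0772) was not called. The part of these markers in the results below was not tested.

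The cap is placed on the first transcribed base, so the RefSeq transcription starts of the members (build GRCh38.p14) are shown for 4 of the 5 largest called rises, for the falls with a start in the table, and for both members with a TOP-like start. Each run holds 10 bases before the start and 20 from it, written 5′ to 3′ on the strand of the gene, and capitals mark the first 5 transcribed bases.
RBM7 (chr11:114400656-114400685, plus strand, higher in Induced): agggggcgacGCTGAgatgggggcggcggc
RBM3 (chrX:48574474-48574503, plus strand, higher): cgtactctttATCAAtcgtcttccggcgca
RBM17 (chr10:6089024-6089053, plus strand, higher): ctctcccggcAGCCCgcgctccctgacccc
RBM5 (chr3:50088909-50088938, plus strand, higher): agcgtgaggtACTGTgggtaggagacggcc
RBM34 (chr1:235161231-235161260, minus strand, lower): gcgcagctgcAGTCTgggagtctttggagt
RBM19 (chr12:113966306-113966335, minus strand, lower): actgtgttccGGCTCggtaaagatggcggc
RBM10 (chrX:47145211-47145240, plus strand, lower): gcgcttccttAGTAGgtggatggtggtcgg
RBM45 (chr2:178112427-178112456, plus strand, not called): actcctctttCTCCCggaagcggagcaccg
RBMX2 (chrX:130401977-130402006, plus strand, not called): gctgcgctgcCTTTCccgggcgctgattcc

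A TOP-like start, the feature of mRNAs for ribosomal proteins and translation factors, was searched for as a C at the first transcribed base followed only by C or T up to the fifth, on the gene's strand. It was found in 2 of the 38 members with a start in the table, RBM45 and RBMX2, which is 5.26% of members, each counted once over its listed starts, against 4.07% of all 35116 RefSeq starts. It was in 0 of the 16 higher and 0 of the 3 lower members with a listed start.

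Between Induced and Control, 38 members passed the expression filter (base mean above 20) and were tested with edgeR's quasi-likelihood test, and a member counted as called when its adjusted P (Benjamini-Hochberg, over all 13038 genes tested) was below 0.05. RBM genes rose more often than they fell. Of the 38, 21 (55.3%) were called in either direction, against 39.8% of all genes tested. Higher in Induced were 17 (44.7%), against 20.0% of all genes tested, and lower were 4 (10.5%), against 19.8%. The median log2 fold change was 0.54 over the tested members and 0.04 over all genes tested. At an unadjusted P below 0.05 there were 23 (60.5%), against 53.3%. By more than 1.5-fold, 15 called members were higher (39.5%), against 18.0% of all genes, and 3 were lower (7.89%), against 16.8%. In bulk RNA, a change in the make-up of a culture and a change of RNA per cell cannot be told apart. With libraries scaled by total counts alone, the median of all genes was 0.28 and the members split into 21 higher and 1 lower, against 30.8% and 10.7% of all genes.

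Few members separated the libraries completely. In 4 members, RBM12B, RBM15, RBM17 and RBM41, every Induced library exceeded every Control library, which is 10.5% of those tested against 3.08% of all genes, and for 0 members, against 4.22% of all genes, did every Induced library lie below. Control 5 was the Control library nearest to Induced in 12 of the 17 higher members and in all 4 lower ones, and Induced 2 was the Induced library nearest to Control in 14 of 17 and in all 4. Both libraries were also left out, an alternative chosen after seeing the data that widens the gap by its construction. The groups of 16 of the 17 and of all 4 then did not overlap. These genes had been picked for their difference, and the share over all genes was not taken, so this count is no result about the members. In that fit 21 members were called higher and 5 lower, against 33.8% and 30.5% of all genes. The log2 fold changes were then 2.22 for RBM7, 2.09 for RBM3, 1.63 for RBM5 and 1.40 for RBM17, and RBM4, RBM23, RBM38 (2.32), RBM48 (1.43) and RBM8A joined the called members, RBM8A as a lower one. With 1 surrogate variable as a covariate, edgeR called 0 members, and RNMT was the 1 gene called of the 13038. At an unadjusted P below 0.05 there were 14 members, against 26.1% of all genes. That variable took the value 0.312 in Control 5 and -0.032 in Induced 2, against -0.698 to -0.103 in the other Control and 0.167 to 0.323 in the other Induced libraries.

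Leaving out 1 library changed the number of calls. The higher members numbered 9 without Induced 4 (7.38% of all genes in the same fit), 10 without Control 2 (7.08%), 11 without Control 1 (8.08%) or Induced 1 (6.99%), and 20 without Control 5 (31.2%), so that the calls over all genes moved alongside. The lower ones numbered 0 without Induced 1, Induced 3 or Induced 4 (7.14% to 9.14% of all genes), 1 without Control 1, Control 2 or Induced 5 (9.53% to 15.4%), and 2 without Control 3 or Control 4 (15.3% and 14.6%). All 21 called members kept their direction in each of these fits, and 9 kept their call in all 10. These 9 were RBM3, RBM5, RBM7, RBM15, RBM17, RBM26, RBM27, RBMS1 and RBMX. The same counts over all called genes were not taken, so whether RBM calls are more or less stable than others is not known. The calls of RBM4B, RBM10, RBM12, RBM22 and RBM34 held in the fits without Control 5 or Induced 2 and in no other. RBM41 lost its call without Induced 1 or Induced 4, where the adjusted P was at most 0.0507. RBM39 lost it without Induced 1, Induced 3 or Induced 4, RBMS3 without Control 2, Induced 1 or Induced 4, and RBM6 without Control 1, Control 2 or Induced 4, with adjusted P at most 0.0589. RBM12B, RBM19 and RBM24 lost theirs in 4, 6 and 5 of the 10 fits.

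**Figure D1:**
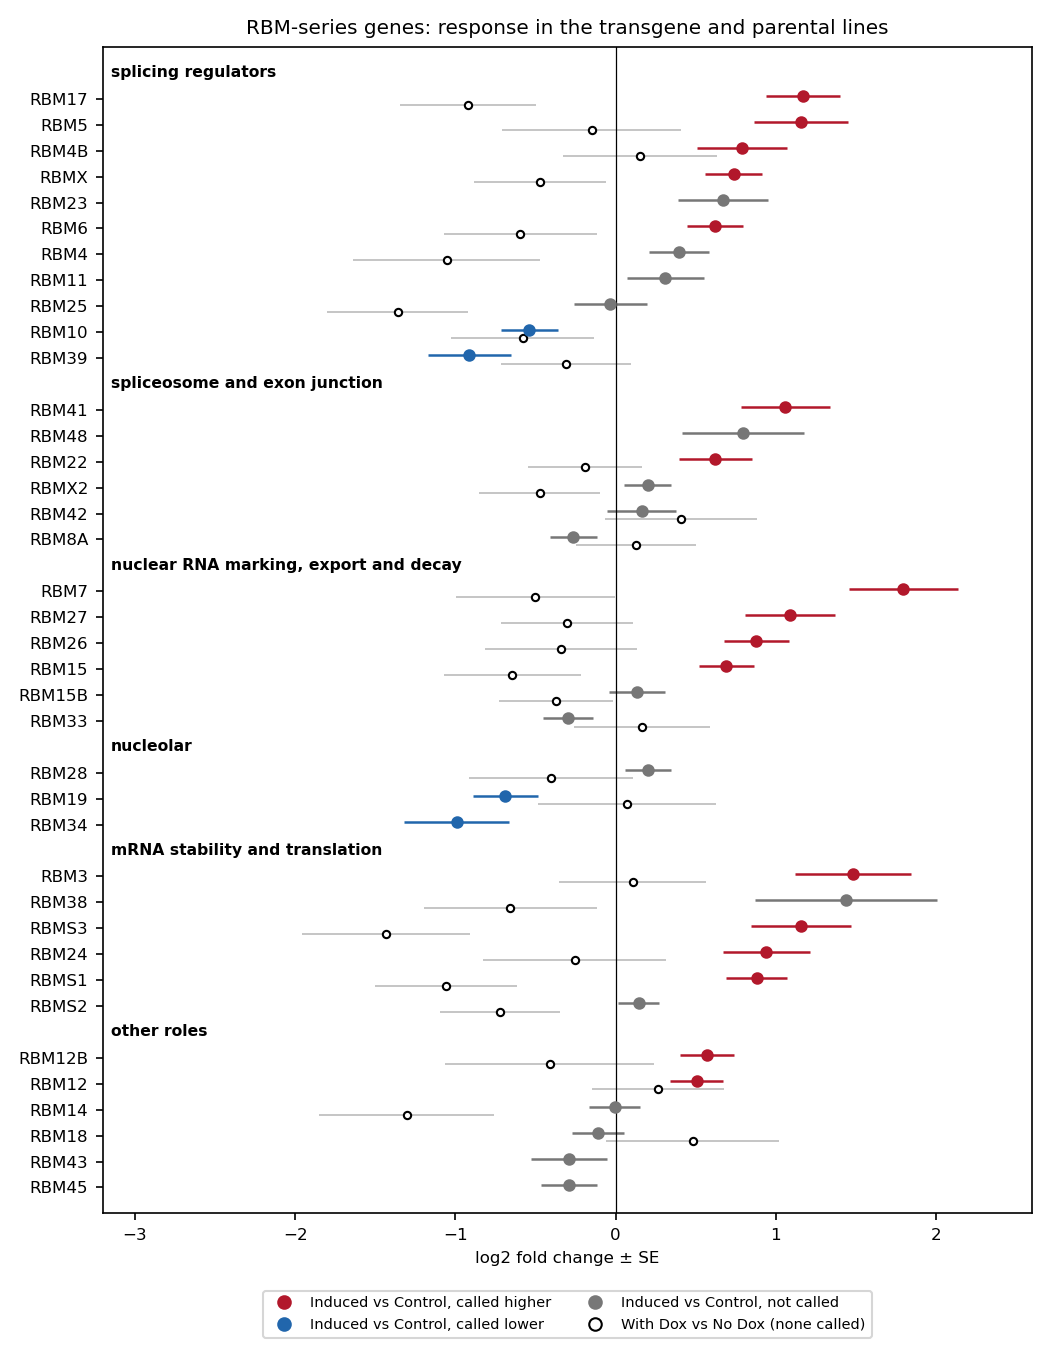
Log2 fold changes with standard errors of the 38 tested RBM-series genes, grouped by role, in Induced against Control (filled points, red for called higher, blue for called lower, grey for not called) and in With Dox against No Dox (open points, 31 genes, none called). The 17 genes called higher lie between 0.51 and 1.80, and most open points lie left of 0.

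The splicing regulators, proteins that help choose splice sites, were called in both directions. Of 11 tested, 5 were higher and 2 lower, against 20.0% and 19.8% of all genes. The other 4 were not called, and the median log2 fold change of the 11 was 0.62. The role lists are short and were chosen with earlier results known, so their counts do not show that roles differ. RBM17 (SPF45, a component of the early U2 complex that acts at the 3′ splice site) lies on chr10:6089034-6117457 with 12 exons in its canonical transcript. Its Control libraries held 63.7, 79.0, 95.2, 74.6 and 99.5 CPM in order of replicate number, and its Induced libraries 218, 100, 210, 237 and 163. The lowest Induced library, replicate 2, exceeded the highest Control library, replicate 5, by less than 1 CPM. The log2 fold change was 1.17 (SE 0.23, adjusted P = 0.0175).

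RBM5, a regulator of apoptosis-gene splicing that lies beside RBM6 on chromosome 3, held 9.40, 8.13, 10.3, 9.58 and 21.6 CPM in Control and 24.4, 15.7, 28.5, 28.8 and 34.5 in Induced. The groups overlapped through Control 5 and Induced 2, and the log2 fold change was 1.16 (SE 0.29, adjusted P = 0.0178). RBM6, whose annotated span overlaps that of RBM5 on the same strand, held 11.9, 12.9, 11.4, 15.3 and 14.8 in Control and 15, 18.1, 19.4, 25.8 and 23.9 in Induced. Induced 1 lay just below Control 4, and the log2 fold change was 0.62 (SE 0.18, adjusted P = 0.022). RBMX, the X-linked hnRNP G, which binds pre-mRNA and regulates splicing, went from 81.7 ± 13.8 (SD, n = 5) to 136 ± 27.9 (SD, n = 5) CPM, with a log2 fold change of 0.74 (SE 0.18, adjusted P = 0.0177). RBM4B, a regulator of alternative splicing, held 21.2, 20.0, 11, 25.8 and 37.5 in Control and 35.6, 36.8, 32.6, 39.5 and 55.6 in Induced, with a log2 fold change of 0.79 (SE 0.28, adjusted P = 0.0435). The highest Control library, replicate 5, exceeded 3 of the Induced libraries. RBMX has 5 annotated pseudogenes and RBM17 has 4, and tags that aligned to more than 1 place were tallied apart from the genes.

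The lower pair of splicing regulators were RBM39 and RBM10. RBM39 (CAPERα), a U2AF-like splicing factor and transcriptional coactivator on chr20:35701347-35742312, held 222, 229, 376, 195 and 138 CPM in Control and 121, 166, 109, 135 and 86.0 in Induced. Control 3 was the highest of all libraries and Control 5 lay inside the Induced range, with a log2 fold change of -0.91 (SE 0.26, adjusted P = 0.0225). RBM10, an X-linked exon-skipping regulator related to RBM5, held 98.5, 101, 132, 99.5 and 76.3 in Control and 66.2, 88.0, 68.7, 71.4 and 54.7 in Induced. Control 5 and Induced 2 again lay on the other group's side, and the log2 fold change was -0.54 (SE 0.18, adjusted P = 0.0331). With offsets for GC content it was -0.13 and not called (adjusted P = 0.475).

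Among the splicing regulators that were not called, RBM23, a relative of RBM39, had a log2 fold change of 0.67 (SE 0.28, adjusted P = 0.0731), with 2.89, 3.10, 5.72, 2.13 and 4.16 CPM in Control and 5.74, 3.53, 5.65, 6.31 and 7.42 in Induced. Here Control 3, not Control 5, lay highest in its group. RBM4 (0.39, SE 0.19) held 12.1, 15.7, 15.6, 11.7 and 19.4 in Control and 23.7, 17.5, 22, 20.0 and 14.9 in Induced. RBM11 (0.31, SE 0.24) held 1.22, 1.40, 0.834, 1.55 and 1.43 in Control and 1.86, 1.13, 1.59, 1.52 and 1.96 in Induced. The groups of both overlapped widely. RBM25, which binds exonic enhancers, had a log2 fold change of -0.03 (SE 0.23). RBM4 and RBM4B overlap on opposite strands, and whether the counting used strand is not given in the sources used here. RBM4 and RBM14 each overlap the annotated gene RBM14-RBM4 on the same strand. RBM20, the titin splicing regulator of heart muscle, had a base mean just under the filter, with 0.954 to 1.44 CPM in Control and 0.447 to 1.47 in Induced, and was not tested.

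The spliceosome and exon junction members had 2 higher and 0 lower of 6 tested, against 20.0% and 19.8% of all genes. The other 4 were not called, and the median of the 6 was 0.41. RBM41, a protein that binds the U12 and U6atac snRNAs of the minor spliceosome, held 1.22, 2.40, 2.06, 2.56 and 2.39 CPM in Control and 6.41, 2.96, 4.25, 5.48 and 3.15 in Induced. The groups did not overlap, though each value rests on 24 to 119 tags, and the log2 fold change was 1.06 (SE 0.28, adjusted P = 0.0187). RBM22, which holds the catalytic RNA core of the spliceosome, was higher by 0.62 (SE 0.23, adjusted P = 0.0481). This gene has 9 annotated pseudogenes. Not called were RBM48 (0.79, adjusted P = 0.107), a minor spliceosome protein, RBMX2 (0.20), RBM42 (0.16) and RBM8A (-0.26), the Y14 subunit of the exon junction complex.

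The members that mark nuclear RNA or send it to export or decay had 4 higher, 0 lower and 2 not called of 6. Their median was 0.79, and 20.0% of all genes were called higher and 19.8% lower. RBM7, on chr11:114400030-114414203, is the RNA-binding subunit of the nuclear exosome targeting (NEXT) complex, which delivers short-lived nuclear transcripts to the exosome. It had the largest log2 fold change of the 38 tested members. Its Control libraries held 2.89, 2.28, 2.61, 2.81 and 4.69 CPM and its Induced libraries 13.3, 3.72, 13.2, 9.72 and 13.6. All Induced libraries but replicate 2 lay above all Control libraries, and the log2 fold change was 1.80 (SE 0.34, adjusted P = 0.0175), a 3.48-fold rise.

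RBM26 and RBM27 are paralogous zinc finger proteins that link the poly(A) tail exosome targeting (PAXT) connection to nuclear polyadenylated RNA. RBM27 held 14.8, 12, 16.8, 16.7 and 26.8 CPM in Control and 50.0, 19.4, 43.5, 43.2 and 29.8 in Induced. Only Induced 2 lay below Control 5, and the log2 fold change was 1.09 (SE 0.28, adjusted P = 0.0182). RBM26 held 20.1, 17.7, 14.7, 19.4 and 30.5 in Control and 40.4, 29.0, 37.3, 40.1 and 41.6 in Induced. The single crossing was again that of Control 5 and Induced 2, and the log2 fold change was 0.88 (SE 0.20, adjusted P = 0.0175). RBM15, which guides the m6A writer complex to its RNA targets, held 6.40, 4.62, 5.22, 6.15 and 7.77 in Control and 10.1, 8.14, 9.58, 10.05 and 11 in Induced. The groups did not overlap, and the log2 fold change was 0.69 (SE 0.17, adjusted P = 0.0177). Its paralogue RBM15B, far more abundant in tags, held 165, 140, 97.0, 162 and 153 in Control and 160, 136, 152, 145 and 194 in Induced and was not called (0.13, SE 0.17), nor was RBM33 (-0.30), an adaptor for the demethylase ALKBH5.

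**Figure D2:**
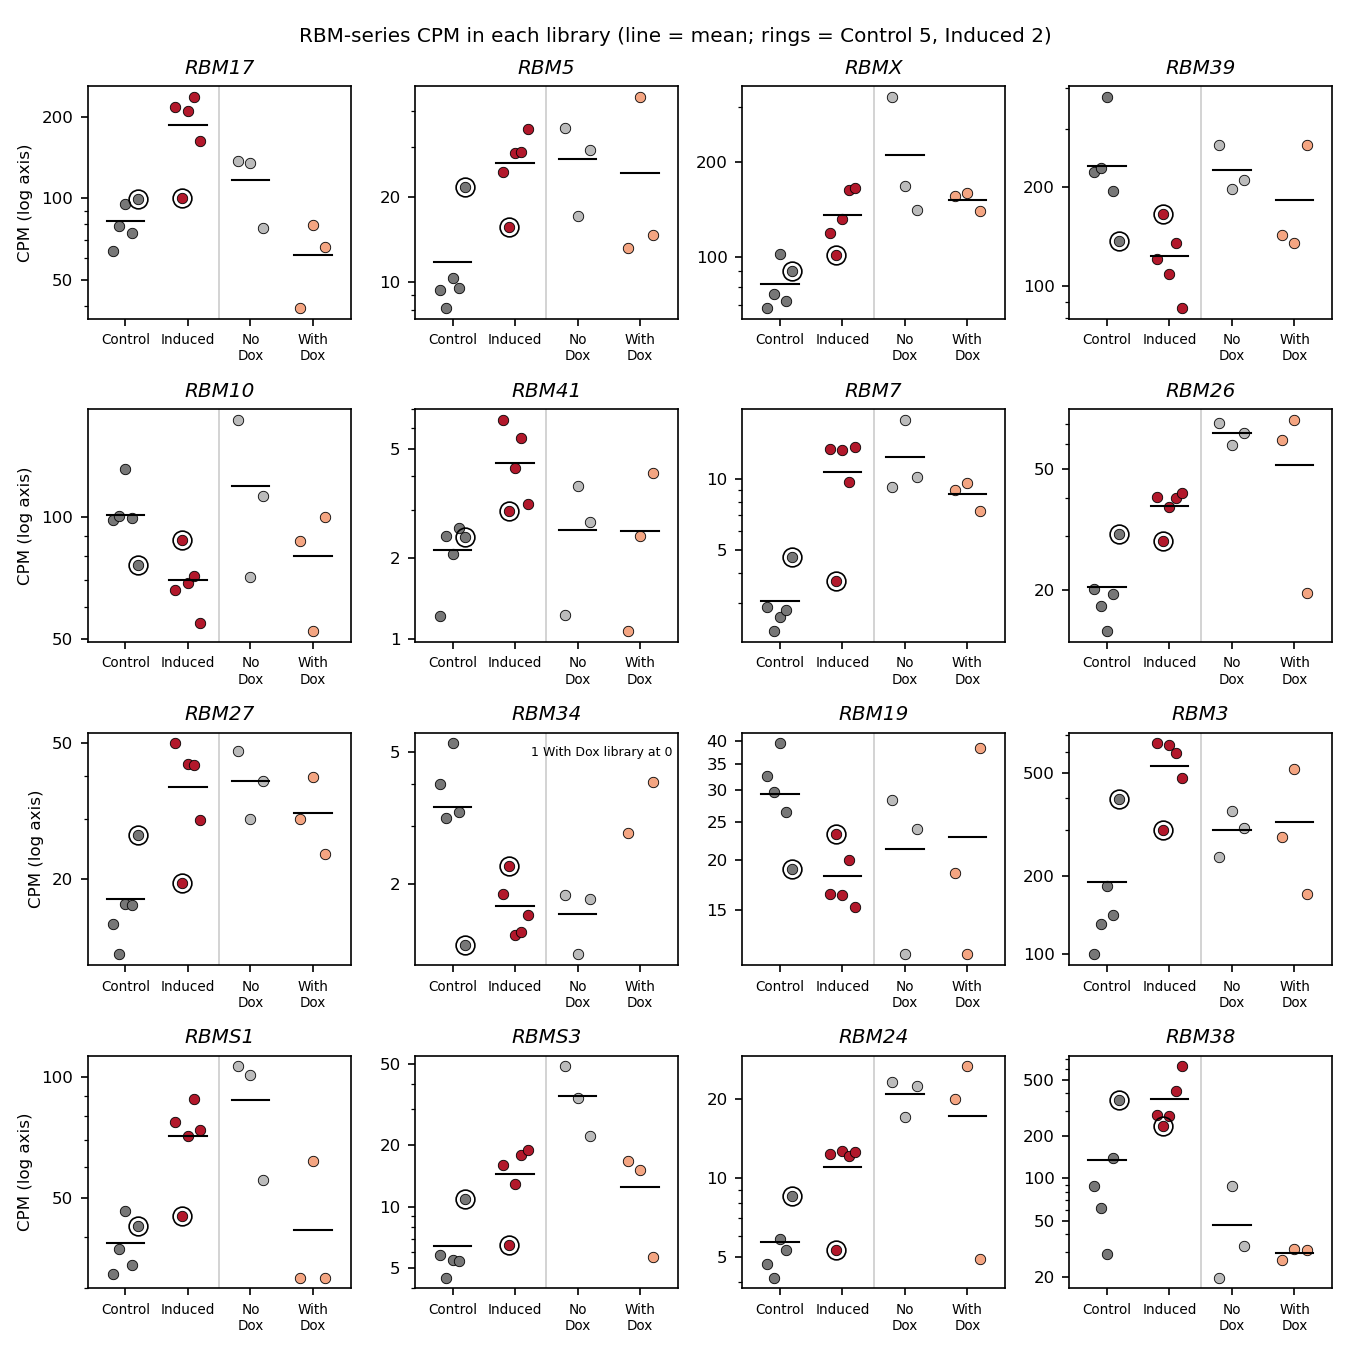
CPM (log axis) of 16 RBM-series genes in each library of the 4 groups, with a line at the mean of each group (not drawn where a library is at 0) and rings around Control 5 and Induced 2; the transgene and parental libraries were scaled separately. Ringed points lie on or near the other group's side in most panels, as for RBM7, where Induced 2 is at 3.72 and Control 5 at 4.69.

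Of the nucleolar members, RBM34 and RBM19 fell and RBM28 was not called (0.20, SE 0.14). RBM34 held 4.01, 3.16, 5.34, 3.29 and 1.30 CPM in Control and 1.86, 2.26, 1.40, 1.43 and 1.60 in Induced. Control 5 was the lowest of all 10 libraries, and the log2 fold change was -0.99 (SE 0.33, adjusted P = 0.0338) on 22 to 96 tags per library. The annotated span of RBM34 overlaps that of ARID4B on the same strand. RBM19, which works in early pre-ribosome assembly, held 32.6, 29.7, 39.5, 26.4 and 19 in Control and 16.4, 23.2, 16.4, 20.1 and 15.2 in Induced. Control 5 lay below Induced 2 and Induced 4, and the log2 fold change was -0.69 (SE 0.21, adjusted P = 0.0253).

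The members known for mRNA stability and translation had 4 higher and 0 lower of 6 tested, against 20.0% and 19.8% of all genes. The other 2 were not called, and the median of the 6 was 1.05. RBM3, a cold-inducible protein that promotes translation, lies on chrX:48574449-48581162 and held 99.6, 131, 184, 142 and 396 CPM in Control and 652, 301, 640, 595 and 477 in Induced. Induced 2 lay below Control 5, the only crossing, and the log2 fold change was 1.48 (SE 0.36, adjusted P = 0.0177), a 2.80-fold rise. The other gene of the cold-inducible pair, CIRBP, had a log2 fold change of -0.04 (SE 0.14, adjusted P = 0.813), with 63.9 ± 8.86 CPM in Control and 62.0 ± 7.10 in Induced (SD, n = 5 each).

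RBMS3, one of the single-stranded nucleic acid binding MSSP proteins, held 5.84, 4.5, 5.50, 5.42 and 10.9 CPM in Control and 16, 6.54, 12.9, 17.8 and 18.9 in Induced. Its rise of 1.16 (SE 0.31, adjusted P = 0.0194) was crossed only by Control 5 and Induced 2. RBM24, a stabilizer of muscle and p53-pathway mRNAs, held 4.67, 4.15, 5.84, 5.32 and 8.55 in Control and 12.4, 5.32, 12.6, 12.1 and 12.6 in Induced. The 4 other Induced libraries lay close together, well above Induced 2, and the log2 fold change was 0.94 (SE 0.27, adjusted P = 0.0226).

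RBMS1 held 32.6, 37.5, 46.6, 34.2 and 42.6 in Control and 77.5, 45.3, 71.2, 88.4 and 74.0 in Induced. Induced 2 lay just below Control 3, and the log2 fold change was 0.88 (SE 0.19, adjusted P = 0.0175). RBMS2 was nearly level, at 28.4, 25.7, 28.0, 28.7 and 29.4 in Control and 28.6, 29.7, 30.8, 29.8 and 35.9 in Induced, and was not called (0.14, SE 0.13). RBM38, a p53 target that regulates mRNA stability, held 87.7, 61.1, 29.0, 138 and 360 CPM in Control and 280, 235, 278, 418 and 623 in Induced. Its log2 fold change of 1.44 was not called (SE 0.57, adjusted P = 0.0596). It was called with DESeq2 (1.41, adjusted P = 0.0199), with the replicate block (1.84, adjusted P = 0.016) and without Control 5 (2.20, adjusted P = 0.00107). RBM46 was counted once in 1 Control library and at 0 in every other library, which allows up to 0.129 to 0.239 CPM in the transgene line and 0.933 to 2.04 in the parental line (3 counts of each library, counting error only). RBM47 held 0.351 to 0.824 CPM in Control and 0.470 to 1.04 in Induced, and neither was tested.

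Among the members with other roles, RBM12B (0.57, SE 0.17, adjusted P = 0.0248) and RBM12 (0.51, SE 0.17, adjusted P = 0.0334) were called higher. RBM12B held 16.1, 14.3, 17.3, 15.6 and 16.5 CPM in Control and 19.1, 24.1, 18.3, 31.8 and 25.4 in Induced. RBM12 held 35.3, 32.1, 30.8, 38.4 and 44.8 in Control and 53.9, 37.3, 59.8, 52.3 and 54.5 in Induced. The groups of RBM12B did not overlap, and those of RBM12 did through Control 4, Control 5 and Induced 2. RBM12 lies within the annotated span of CPNE1 on the same strand, so tags of the shared region may not be assigned to one of them. RBM14, a paraspeckle and transcription coactivator protein, was at -0.0042, RBM18 at -0.11, RBM43 at -0.29 and RBM45 at -0.29, none called. The direction of RBM14, RBM18, RBM25 and RBM11 turned under other scalings or GC offsets. RBM44 had at most 3 tags in a transgene-line library and was not tested.

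**Figure D3:**
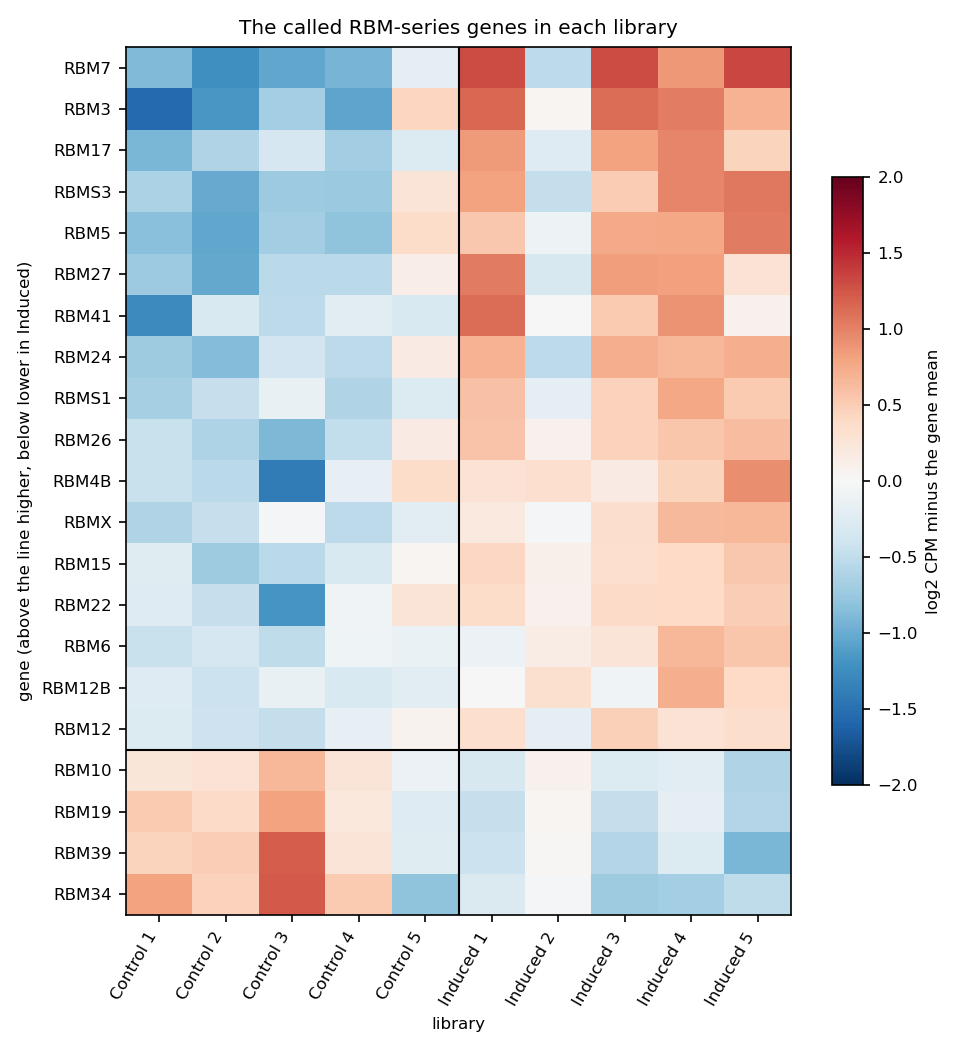
Log2 CPM of the 21 called RBM-series genes in the 10 transgene-line libraries, each gene minus its mean over the libraries (red above, blue below), in order of log2 fold change. In most but not all genes, Control 5 and Induced 2 are paler than or opposite to their groups. The other 8 libraries split by label in all but 1 of the genes, which were picked for their difference between these groups.

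The GC content of the longest transcript differed in its median between these calls, while its ranges overlapped widely. It ran from 36.3% to 54.9% in the higher members, from 41.6% to 60.6% in the lower and from 35.8% to 65.0% in those not called. Its median was 41.5% for the 17 higher members, 49.1% for the 4 lower and 44.8% for the 17 not called, against 42.3%, 56.2% and 47.8% for all genes called higher, called lower and tested. With offsets for GC content, 13 of the 21 called members were still called, with 11 members higher and 5 lower in all, against 12.3% and 15.2% of all genes, and the members' median was 0.35. RBM7, RBM3, RBM17, RBM5, RBM27, RBM26, RBM24, RBM15, RBMS1, RBM4B and RBM6 were the higher ones. The lower ones were RBM39, RBM34, RBM45, RBM18 and RBM8A. RBMX, RBM41, RBMS3, RBM22, RBM12, RBM12B, RBM19 and RBM10 missed the threshold there with the same sign. The sum of 4 nuclear-retained RNAs, of which MEG3 was at 0, lay between 737 and 931 CPM in Control and between 492 and 897 in Induced. Among them NEAT1 was called lower in Induced (-0.44, SE 0.16, adjusted P = 0.041), and MALAT1 (0.03, SE 0.22) and KCNQ1OT1 (-0.27, SE 0.34) were not called. The part of these RNAs in the result was not tested.

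The balance between paralogues was tested as the log2 ratio of both genes in each library, by an exact two-sided permutation test over the 252 ways to split the 10 libraries. Of 12 pairs, 6 differed after Benjamini-Hochberg adjustment over the 12 (adjusted p under 0.05). Pairs that share RBM5, RBMS1, RBMS2 or RBMS3 are not independent. Pairs of other genes were not tested, and 39.8% of all genes tested were called by themselves, so the count does not set RBM pairs apart. The ratio of RBM15 to RBM15B did not overlap between groups. It was -4.67, -4.89, -4.19, -4.70 and -4.28 in Control and -3.98, -4.04, -3.98, -3.83 and -4.13 in Induced, a difference of 0.55 (SE 0.14, exact p = 0.00794, the smallest the design allows, adjusted p = 0.0317). RBM5 rose relative to its homologue RBM10 by 1.73 (SE 0.45), with Control 5 at -1.81 and the other Control libraries between -3.66 and -3.36. Induced 2 lay at -2.48 and the other Induced libraries between -1.44 and -0.66. All ratios were taken without GC offsets. With those offsets, the log2 fold changes of the single genes were 0.97 for RBM5 and -0.13 for RBM10.

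The other pairs past the threshold were RBM23 over RBM39 (1.56, SE 0.41), RBM7 over RBM11 (1.37, SE 0.30), RBMS1 over RBMS2 (0.72, SE 0.19) and RBMS2 over RBMS3 (-0.99, SE 0.32), each with an exact adjusted p of 0.0317. RBM7/RBM11 rests on 15 to 33 tags of RBM11 per library. Not past it were RBM5/RBM6 (0.60, SE 0.28), RBM24/RBM38 (-0.94, SE 0.57), RBM4/RBM4B (-0.47, SE 0.38), RBMS1/RBMS3 (-0.27, SE 0.24), RBM26/RBM27 (-0.16, SE 0.23) and RBM12/RBM12B (-0.04, SE 0.23). Within the MSSP proteins, RBMS1 and RBMS3 rose with a ratio that did not pass the test, and RBMS2 lagged behind both. With 1 library left out, 7 pairs passed without Control 5, 6 without Induced 2 and 0 in the 8 other cases.

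**Figure D4:**
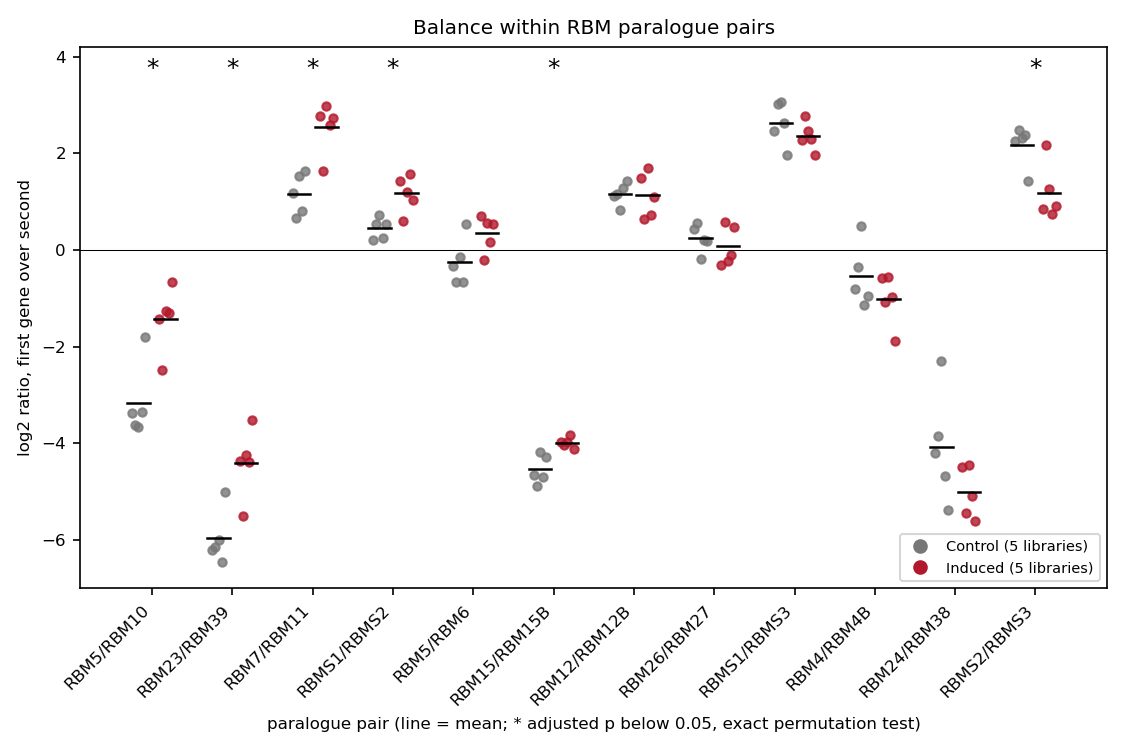
Log2 ratio of the first to the second gene of 12 RBM paralogue pairs in each of the 5 Control (grey) and 5 Induced (red) libraries, with a line at each mean, sorted by the difference; stars mark an adjusted p below 0.05 in the exact permutation test. The 6 starred pairs include RBM15/RBM15B, whose groups do not overlap.

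The partners with which RBM proteins form complexes were counted from short lists of textbook members. They were pooled with CIRBP and with genes that once carried an RBM symbol, which are not partners in a complex. Of the 39 tested genes of this pool, none of them RBM genes, 11 were called higher and 4 lower. Of all genes 20.0% and 19.8% were. The median log2 fold change of the pool was 0.19, and 0 were called in parental cells. In the m6A writer complex, 4 of 6 other members were higher: CBLL1 (1.07, SE 0.30), VIRMA (0.91, SE 0.25), METTL14 (0.68, SE 0.13) and WTAP (0.43, SE 0.14). METTL3, the catalytic subunit, had a log2 fold change of 0.61 (SE 0.33, adjusted P = 0.146). In the NEXT complex the scaffold ZCCHC8 rose by 0.87 (SE 0.18, adjusted P = 0.0175) beside RBM7, and the helicase MTREX had a log2 fold change of 0.17 (adjusted P = 0.538). In the PAXT connection PABPN1 was called (1.06, SE 0.39, adjusted P = 0.0495), and ZFC3H1 (-0.26, SE 0.19) and MTREX were not. The paraspeckle proteins SFPQ (0.92, SE 0.26) and NONO (0.62, SE 0.15) were higher.

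Most called partners in the minor spliceosome were lower, while RBM41 was called higher and RBM48 was not called. Of the 10 tested partners 1 was higher and 4 were lower, against 20.0% and 19.8% of all genes, in a short list chosen with earlier results known. PDCD7 was higher (1.02, SE 0.21), while SNRNP35 (-1.19, SE 0.31), ARMC7 (-0.998, SE 0.28), the RBM48 partner, SCNM1 (-0.94, SE 0.23) and ZMAT5 (-0.81, SE 0.24) were lower. The median of the 10 was -0.53. The early U2 and branch site list had 0 of 6 non-RBM members called, so that its calls were RBM17 and RBM5 (higher) and RBM39 and RBM10 (lower). In the exon junction complex 0 of 5 were called. Its helicase EIF4A3 had a log2 fold change of 1.78 with a wide spread (SE 0.70, adjusted P = 0.0589). Among genes that once carried an RBM symbol, SCAF8, formerly RBM16, was called higher (0.53, SE 0.17, adjusted P = 0.0306) and the other 4 tested were not.

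In parental cells, With Dox was compared with No Dox for the 31 members that passed the filter. RBM11, RBM20, RBM23, RBM34, RBM41, RBM43, RBM44, RBM45, RBM46, RBM47 and RBM48 did not. With edgeR 0 members and 0.00% of the 9124 genes tested were called, and with DESeq2 also 0 members. At an unadjusted P below 0.05 there were 4 members (12.9%), against 2.93% of all genes. All 4 had lower levels with doxycycline, and each had an adjusted P of 0.997. RBM25 had the lowest P (0.0104), with 274, 117 and 129 CPM in No Dox and 80.4, 68.6 and 53.0 in With Dox, a log2 fold change of -1.36 (SE 0.44). RBMS3 was at -1.43 (SE 0.53), RBM14 at -1.30 (SE 0.55) and RBMS1 at -1.06 (SE 0.44).

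The tested members leaned downwards in the parental comparison, with a median log2 fold change of -0.40 against -0.01 over all genes, and 23 of 31 below 0. Without No Dox 1 the medians were -0.12 and 0.09. Every With Dox library lay below every No Dox library in 7 members (22.6%), against 4.66% of all genes, and in 0 members, against 4.87% of all genes, did every With Dox library lie above. The 7 were RBM14, RBM15, RBM15B, RBM25, RBMS2, RBMS3 and RBMX2. Beside these values, the sum of nuclear-retained RNAs lay between 471 and 1663 CPM in No Dox and between 270 and 453 in With Dox, and the share of mitochondrial tags lay between 1.76% and 9.38% over the 6 parental libraries. MALAT1 had a log2 fold change of -2.57 (SE 0.54, adjusted P = 0.997) and NEAT1 of -0.50 (SE 0.50), neither called. The part of these RNAs and of the mitochondrial tags was not tested. At the depth of these 6 libraries a missed call does not show that a level stayed the same.

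Whether the response differed between the lines was tested as the Induced against Control change minus the With Dox against No Dox change over all 16 libraries. Of 36 members tested, 5 were called (13.9%), against 2.98% of all 12265 genes. All 5 were more positive in the transgene line, against 0.775% of all genes called in that direction, and 0 were more negative, against 2.20%. At an unadjusted P below 0.05 there were 15 (41.7%), against 26.1%. The differences were 2.81 for RBM48 (SE 0.74, adjusted P = 0.04997), 2.38 for RBMS3 (SE 0.55, adjusted P = 0.0408), 2.07 for RBM7 (SE 0.54, adjusted P = 0.0478), 1.85 for RBM17 (SE 0.43, adjusted P = 0.0408) and 1.70 for RBMS1 (SE 0.41, adjusted P = 0.0433). In RBMS3, RBM7, RBM17 and RBMS1 the difference joins a rise in the transgene line to a parental change of the opposite sign that was not called by itself. RBM48 was called in neither line and was under the filter in parental cells. Of the nuclear-retained RNAs, MALAT1 (2.37, SE 0.52, adjusted P = 0.0405) was called here and NEAT1 (-0.17, SE 0.46) was not, and their part was not tested.

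The values behind them were as follows. RBMS3 held 48.6, 34.1 and 22.2 CPM in No Dox and 16.8, 15.2 and 5.70 in With Dox. RBM17 held 138, 135 and 77.3 in No Dox and 39.3, 79.8 and 66.0 in With Dox, an overlap through No Dox 3 and With Dox 2. RBM48, on 3 to 27 tags per parental library, held 16.6, 6.10 and 6.29 in No Dox and 2.14, 1.2 and 3.26 in With Dox, and in the transgene line it was 0.79 and not called. RBM7 went from 12.4 ± 4.63 to 8.61 ± 1.15 (SD, n = 3 each), and RBMS1 from 87.7 ± 28.1 to 41.8 ± 17.3. These calls lay close to the threshold. With 1 of the 16 libraries left out, the number of members called was 9 without Control 5, 8 without No Dox 3, 8 without With Dox 2, 7 without Induced 2 and 0 without any of the 12 others. All these members were more positive in the transgene line, and of all genes 8.45%, 2.50%, 6.39% and 3.40% were called in that direction in the first 4 fits and at most 0.297% in the others.

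**Figure D5:**
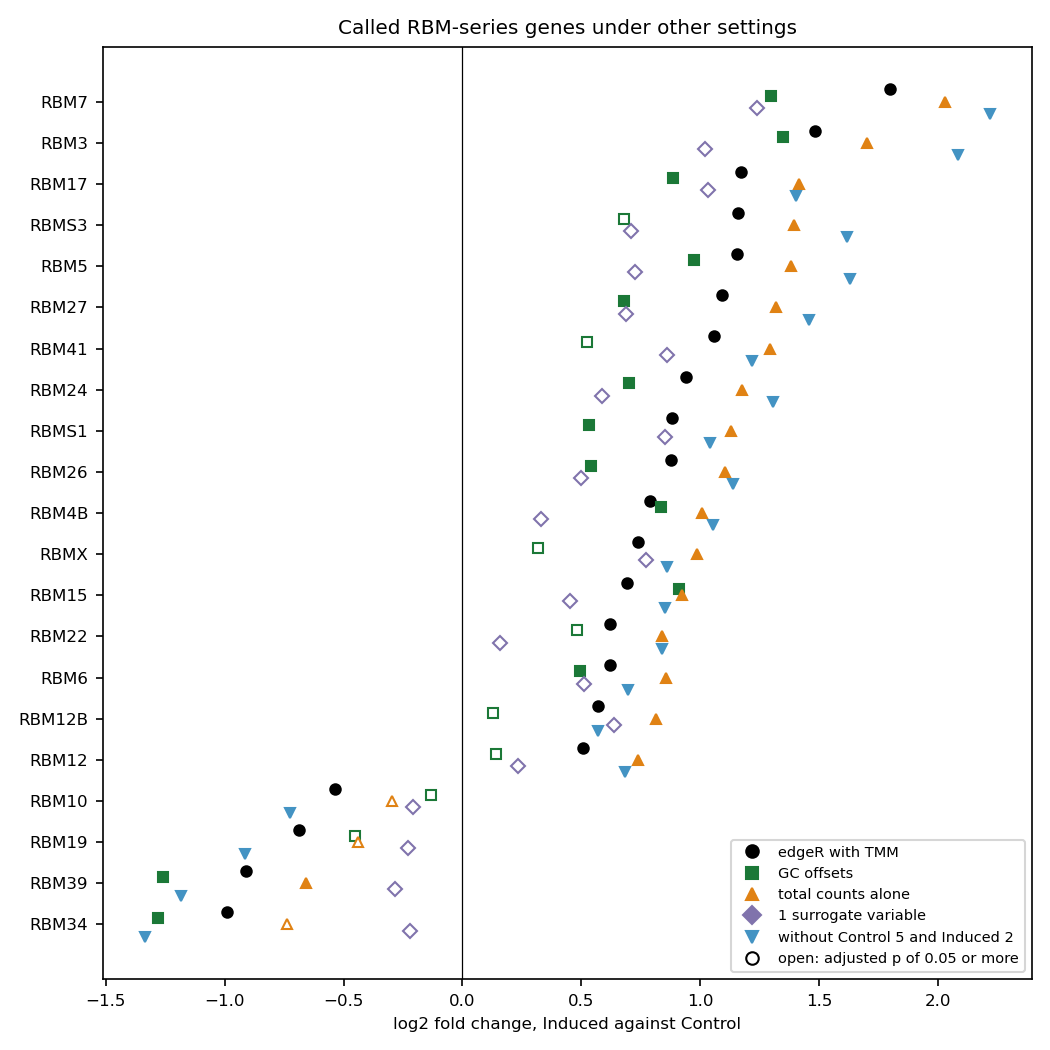
Log2 fold change, Induced against Control, of the 21 called RBM-series genes with edgeR and TMM scaling, with GC offsets, with total counts alone, with 1 surrogate variable and without Control 5 and Induced 2; filled symbols have an adjusted P below 0.05. All symbols of a gene lie on the same side of 0, and all those with the surrogate variable are open.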

How the data were processed

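The data were QuantSeq REV 3′ tag libraries of cytoplasmic RNA. Per library, the authors deposited a table of raw counts for Ensembl genes from the Lexogen QuantSeq pipeline (GRCh38). The aligner, annotation release and use of strand are not given in the sources used here. The 92 spike-in entries and 5 summary entries were left out of library sizes and tests. Relative to the gene counts, tags outside genes were 0.0744 to 0.106 in the transgene line and 1.11 to 1.50 in the parental line. The part of this difference in the between-line test was not tested. Tags with more than 1 alignment amounted to a ratio of 0.561 to 1.44.

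GENCODE release 44 named 56104 of the 60107 genes. Genes with a base mean over 20 (DESeq2 size factors) were tested in R 4.3.3 with edgeR 4.0.16 (TMM, quasi-likelihood test, Benjamini-Hochberg adjustment over all genes tested). A standard error is the log2 fold change over the root of its F value. DESeq2 1.42.0, sva 3.50.0 and, for ratios and summaries, Python 3.11.15 served for the rest. Paralogue ratios took log2 CPM with a prior count of 2. The fits were tested on simulated data, and a gene that was not called is not shown to be unchanged. The labels do not say whether replicates were separate cultures, while the study calls them biological replicates, and P values measure the spread between these libraries.

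Alternatives were the Wald test of DESeq2, its size factors in edgeR, total counts alone, filterByExpr, no filter, a block for the replicate number, GC offsets (lowess span 0.5) without and with that block, 1 surrogate variable, a prior count of 0.5 for ratios, and each library left out. The members, role lists and partner lists were chosen with earlier results of these data known. Values in every library are given for the 8 largest called rises, all called falls, the genes of the tested pairs, and the lowest P in the parental and between-line tests. From each partner list the called genes were named, at most 4 by size. One gene that this rule takes is not reported here. CIRBP, EIF4A3, METTL3, MTREX and ZFC3H1 were named after their values were seen. The start of RBM12B and those of RBM39, RBM43 and RBM48 were not used here.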

Additional observations from a re-analysis of the deposited data

Results flagged for a closer look

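Single libraries lay far from the rest of their group (a gap of more than 0.710 of the group's range) in 8 of 76 groups of 5 libraries. About 1 in 20 groups of independent, normally distributed values pass that limit. The 76 groups are many genes in the same libraries and are not independent, so the count cannot be set against that rate. Control 5 was the highest Control library for RBM3 (396 CPM), RBM5 (21.6), RBMS3 (10.9), RBM48 (7.42) and RBM7 (4.69). Induced 2 was the lowest Induced library for RBM24 (5.32), Control 3 the lowest Control library for RBM42 (22.9) and Induced 3 the lowest Induced library for RBM43 (1.90). The cause was not tested.

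The response differed between the lines in the test over all 16 libraries for RBM48 (2.81), RBMS3 (2.38), RBM7 (2.07), RBM17 (1.85) and RBMS1 (1.70), each a log2 difference more positive in the transgene line. Line, sequencing facility and instrument cannot be told apart there.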

How the results depend on the processing

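All 21 called members kept their direction under all alternatives run, and 10 kept their call under all but the surrogate variable. The same counts over all called genes were not taken. With total counts alone 1 member was lower and the median log2 fold change was 0.776, and RBM18 (0.12), RBM25 (0.21) and RBM14 (0.23) turned positive. Without a filter the median was 0.344. With GC offsets 11 members were higher, the median was 0.352, and RBM11 (-0.20) and RBM14 (0.14) changed sign. With 1 surrogate variable 0 were higher and 0 lower, the median was 0.276, and RBM25 (0.29), RBM42 (-0.089), RBM43 (0.0083), RBM11 (-0.0021) and RBM15B (-0.11) changed sign. With 1 library left out, 9 to 20 members were higher and 0 to 4 lower, RBM25 ranged from -0.13 to 0.12 and RBM14 from -0.12 to 0.051, and the RBM12/RBM12B ratio from -0.18 to 0.085 (0.15 without both Control 5 and Induced 2). Members that differed between the lines numbered 8 with DESeq2 (4.79% of all genes in the same direction), 3 with its size factors (0.595%) and 10 with total counts (3.77%). They numbered 0 with filterByExpr (0.0121%), where 17 of 40 members had an unadjusted P under 0.05, against 21.6% of all genes. Without a filter there were 3 (0.381%). Leaving out 1 library gave 0 to 9, and pairs past the threshold then numbered 0 to 7. The cause was not tested.

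Replicate numbers did not pair the libraries (mean correlation of same-numbered deviations 0.026 with the transgene and -0.06 in parental cells). With the replicate block 18 members were higher and 3 lower (22.5% and 17.3% of all genes), RBM14 was at 0.0098, and 0 pairs passed a sign flip test, whose smallest exact p, 0.0625, cannot pass. With GC offsets and the block the median was 0.36, RBM11 was at -0.20 and RBM14 at 0.15. The parental libraries were shallower, fewer and more variable (common biological coefficient of variation 0.444 against 0.320).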
